A study of Mus musculus with 18 samples.

Results

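Small intestinal crypts of WT mice 14 days after the first tamoxifen injection were compared with those of WT mice at day 2. Chosen by their titles, these are 6 of the 18 RNA-Seq libraries of the series (3 per group, 1 library per mouse). Crypts are the epithelial pockets of the small intestine that hold the stem cells, their dividing daughters and the Paneth cells. The WT mice were 8 to 12 weeks old, carried LoxP sites on both copies of Prmt1 (PRMT1 fl/fl) and had no Cre, so that their Prmt1 gene stayed intact, and they were littermates of KO mice that also carried the villin-driven, tamoxifen-inducible CreERT2 (PRMT1 fl/fl; Vil-CreERT2). All mice received 2 mg tamoxifen per injection. Day 2 mice had received 2 injections and were collected while treatment was still running, whereas day 14 mice had received 5 injections and were collected 10 days after the last one. The comparison therefore asks what differs between crypts 10 days after the end of treatment and crypts under treatment, in animals in which the drug has no recombinase to act on. Values of WT mice at day 7 (5 injections, 3 days after the last one, 3 libraries) are given only beside it. So are those of the KO mice at days 2 and 14 (3 libraries each). The spread behind its tests was estimated over all 18 libraries, KO day 7 included.

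Prmt1 was at 27.1, 26.5 and 26.1 CPM (the count of a gene relative to the scaled total of its library, so that all libraries share 1 total) in WT day 2 crypts and at 25.2, 30.6 and 20.2 CPM in WT day 14 crypts. In KO mice the 6 values of days 2 and 14 lay between 13.1 and 16.1 CPM, below every WT value. Total counts per library ranged from 20609314 to 31493484 at WT day 2 and from 12844642 to 25484868 at WT day 14. The label of crypts was checked against markers, and Lgr5, a stem cell receptor (29.4 to 46.1 CPM), Olfm4, a stem cell glycoprotein (1188 to 1571 CPM), and Lyz1, the lysozyme of Paneth cells (3109 to 9747 CPM), were present in all 6 of them. Enterocyte genes were detected as well, and their levels are given with the enterocyte list.

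Of 21349 genes tested, 343 (1.61%) differed between WT day 14 and day 2 crypts at an adjusted p under 0.05 in edgeR's quasi-likelihood test. At day 14, 157 of them were higher (0.735% of the genes tested) and 186 were lower (0.871%), and 52 and 93 of these passed a 2-fold change. The 3 libraries of one day did not overlap those of the other for 341 of the 343 genes, and for 23.8% of all genes tested. The exceptions, named after their values were seen, were H2-T23 and 4833422C13Rik. The median log2 fold change of all genes was 0.0088. Of the 343 genes, 45 belong to one of the 45 gene lists examined. Among these lists the clock genes had calls in both directions, and the xenobiotic, enterocyte and interferon-stimulated lists had decreases alone (the plot of level against fold change names the most prominent genes).

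**Figure D1:**
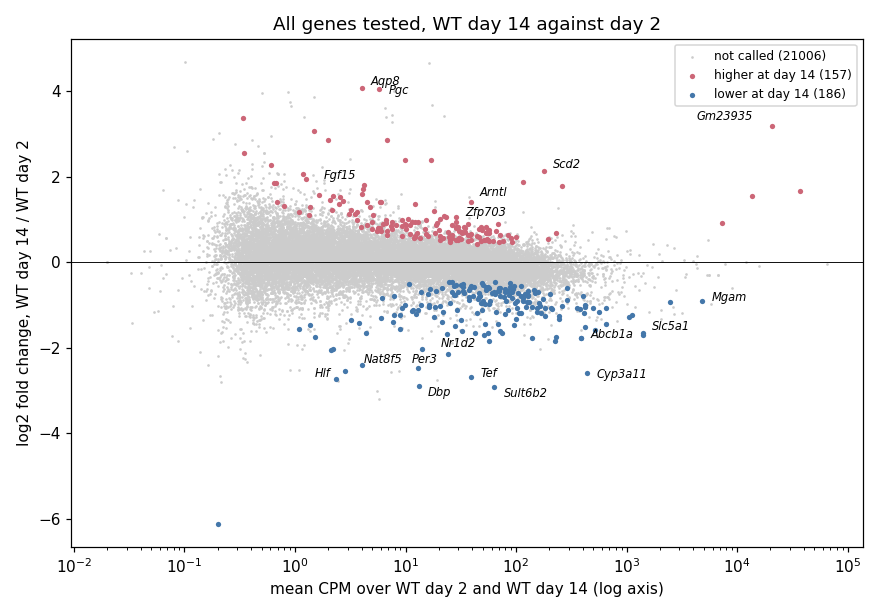
Each point is 1 of the 21349 genes tested, with its mean CPM over the WT day 2 and day 14 libraries on a log axis and its log2 fold change of day 14 over day 2. Red points (157) are higher and blue points (186) lower at an adjusted p under 0.05. Dbp, Tef and Sult6b2 are among the genes with the largest decreases and Aqp8 and Pgc among those with the largest increases. The lone lowest point is Mirt2, which had 0 counts in every day 14 library so that its fitted change is no bound. Gm23935 lies far to the right, as do Gm26917 and CT010467.1, which were also called higher.

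The number of genes called depended on single libraries. Dropping one of the day 2 mice left 22 calls (replicate 1), 712 (replicate 2) or 61 (replicate 3), and dropping one of the day 14 mice left 47 (replicate 1), 361 (replicate 2) or 156 (replicate 3). A model of the 6 libraries alone called 28 genes. An offset that removes the dependence on GC content from each library (GC offset), added after seeing the data and described with the base composition, called 144. With the 20 most abundant genes left out before scaling, 252 genes were higher and 189 lower, so that the share of higher genes among the calls was 57.1% in place of 45.8%. Only 13 genes passed the test in all of these fits that left out 1 library and in the model of the 6 libraries alone. They were Arntl, Dbp, Nr1d2, Per3, Tef, Abcb1a, Mertk, Zfp703, Foxp4 and the unnamed or small features Gm23935, Gm24187, Gm42686 and Gm45371, and 5 of the 13 are clock genes.

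The circadian clock is a loop of transcription factors that runs in most cells, epithelial cells of the gut included. BMAL1 (encoded by Arntl) pairs with CLOCK or NPAS2 and switches on the Per and Cry genes, the nuclear receptors Nr1d1 and Nr1d2 and the PAR-bZIP factors Dbp, Tef and Hlf. PER and CRY proteins then block BMAL1, NR1D1 and NR1D2 repress Arntl, and NFIL3 competes with DBP, TEF and HLF for the same sites. Genes of the BMAL1 arm and genes of the PER and DBP arm therefore peak at opposite times of day, and DBP, TEF and HLF pass the rhythm on to genes of detoxification.

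These genes were the most frequently called list in the comparison. Of 20 clock genes tested, 3 rose (Arntl, Npas2 and Nfil3), 8 fell (Dbp, Tef, Hlf, Per2, Per3, Cry2, Nr1d2 and Usp2) and 9 did not pass, which makes 55.0% called against 1.61% of all genes. The number called was 5 without day 2 replicate 1, between 7 and 11 when any other of the 6 libraries was dropped, and 7 in the model of the 6 libraries alone. None of the 11 had overlapping groups, which also held for 341 of all 343 genes called and for 23.8% of all genes tested. Their promoters are shown because these genes moved together. A promoter window of the RefSeq table (GRCm38.p6) was found for 10 of the 11 genes, and the 250 bases before the start site were searched on both strands for the E-box CACGTG bound by BMAL1, the D-box TTANGTAA bound by DBP, TEF, HLF and NFIL3, and TAGGTCA, the element bound by ROR and NR1D receptors. No motif overlapped another. The 3 windows with a match are printed 5′ to 3′ on the strand of the gene, with the matches in capitals.
Per3 (chr4:151044666-151044915, minus strand): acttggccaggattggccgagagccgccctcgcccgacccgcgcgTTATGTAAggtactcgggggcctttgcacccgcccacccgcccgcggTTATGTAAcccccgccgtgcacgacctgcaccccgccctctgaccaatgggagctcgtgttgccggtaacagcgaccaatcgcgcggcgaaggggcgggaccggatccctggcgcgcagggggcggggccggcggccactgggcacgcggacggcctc
Tef (chr15:81802423-81802672, plus strand): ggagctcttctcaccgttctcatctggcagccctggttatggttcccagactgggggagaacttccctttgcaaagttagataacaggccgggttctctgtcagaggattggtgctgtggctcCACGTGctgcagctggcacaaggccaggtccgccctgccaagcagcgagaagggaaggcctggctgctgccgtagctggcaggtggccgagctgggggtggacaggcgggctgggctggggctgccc
Nfil3 (chr13:52981040-52981289, minus strand): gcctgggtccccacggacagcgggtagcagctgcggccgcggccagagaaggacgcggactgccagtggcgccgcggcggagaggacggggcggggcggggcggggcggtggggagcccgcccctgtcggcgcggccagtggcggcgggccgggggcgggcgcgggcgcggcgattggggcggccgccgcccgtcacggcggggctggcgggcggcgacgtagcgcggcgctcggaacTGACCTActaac
Per3 held 2 D-boxes, which begin 205 and 158 bases before the start site, Tef held 1 E-box, which begins 127 bases before it, and Nfil3 held 1 TAGGTCA element, which begins 12 bases before it. Of all 32851 promoter windows of this length, 6.02% held the E-box, 2.06% the D-box and 2.23% the TAGGTCA element.

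Among the genes that BMAL1 switches on, the PAR-bZIP factors showed the largest decreases. Dbp, on chromosome 7 (45705088 to 45710203, mm10), was at 30.0, 18.7 and 21.1 CPM at WT day 2 and at 2.27, 3.40 and 3.48 CPM at WT day 14 (log2 fold change -2.90, SE 0.42, adjusted p = 0.0049). Tef, on chromosome 15, whose E-box is shown above, fell from 76.8, 61.2 and 67.1 CPM to 7.18, 12.1 and 12.4 CPM (log2 fold change -2.68, SE 0.34, adjusted p = 0.0021). Hlf, on chromosome 11, was much weaker, at 7.63, 3.16 and 3.79 CPM against 0.378, 1.22 and 0.741 CPM (log2 fold change -2.55, SE 0.51, adjusted p = 0.023). In each of these genes every day 14 library lay below every day 2 library. Hlf was no longer called in some of the fits that left out 1 library, where its adjusted p reached 0.134, whereas Dbp and Tef passed in all of them (highest adjusted p 0.0287 and 0.0125).

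The repressors of the loop fell as well. Per3, the gene with the 2 D-boxes, was at 49.6, 45.9 and 24.4 CPM at day 2 and at 9.44, 7.74 and 9.78 CPM at day 14 (log2 fold change -2.15, SE 0.28, adjusted p = 0.0021). Nr1d2, which encodes REV-ERBβ, was at 107, 83.3 and 77.5 CPM against 21.2, 26.2 and 27.0 CPM (log2 fold change -1.84, SE 0.22, adjusted p = 0.0012). Per2 was at 49.5, 47.3 and 40.9 CPM against 23.5, 14.4 and 16.3 CPM (log2 fold change -1.36, SE 0.23, adjusted p = 0.0098). The lowest day 2 library lay above the highest day 14 library in each of these genes, also in Per3, where 1 day 2 library was well below the other two. Cry2 was at -1.11 on the log2 scale (SE 0.23, adjusted p = 0.023) and Usp2, a deubiquitinase whose transcript follows the clock, one of -0.77 (SE 0.18, adjusted p = 0.043). Not every repressor passed. Per1 was at 22.9, 24.9 and 15.3 CPM against 18.7, 29.3 and 30.2 CPM, with overlapping groups (log2 fold change 0.32, adjusted p = 0.43), Cry1 had a log2 fold change of -0.47 (adjusted p = 0.17), and Nr1d1, the paralogue of Nr1d2, was at 38.8, 32.8 and 35.1 CPM against 13.7, 29.1 and 27.1 CPM (log2 fold change -0.60, adjusted p = 0.20).

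The activators and Nfil3 went the other way. Arntl, on chromosome 7 (113207465 to 113314126), rose from 18.4, 21.8 and 23.3 CPM to 58.2, 52.7 and 58.3 CPM (log2 fold change 1.41, SE 0.18, adjusted p = 0.0012). Npas2, the partner that can stand in for CLOCK, rose from 13.9, 12.9 and 18.3 CPM to 29.7, 33.1 and 31.4 CPM (log2 fold change 1.06, SE 0.17, adjusted p = 0.0067). Nfil3, the repressor with the TAGGTCA element, rose from 4.47, 5.12 and 5.98 CPM to 10.9, 9.04 and 10.2 CPM (log2 fold change 0.95, SE 0.22, adjusted p = 0.039, and 0.0622 under the GC offset). The lowest day 14 library lay well above the highest day 2 library in each of them. Clock itself did not pass, with a log2 fold change of -0.22 (95% confidence interval -0.47 to 0.03). The labels and methods used here give no hour of collection.

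**Figure D2:**
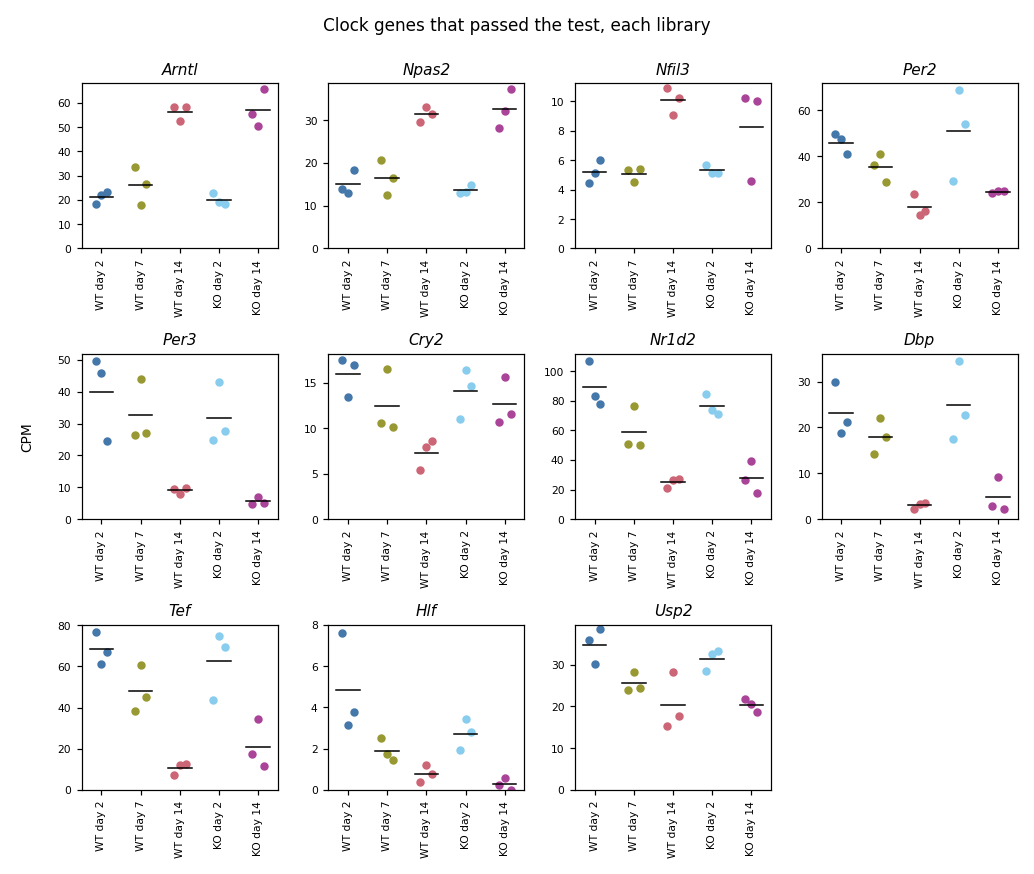
CPM (linear axis from 0) of the 11 clock genes that passed the test in WT day 14 against day 2, with 1 point per library and a line at the mean of each group of 3. Arntl, Npas2 and Nfil3 are higher at WT day 14 than at WT day 2 and the other 8 are lower, without overlap.

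At WT day 7, 3 days after the last injection, none of the 11 genes had passed the test against day 2, as 0.553% of all genes had. Arntl was at 33.7, 17.9 and 26.8 CPM, Dbp at 14.1, 21.98 and 17.9 CPM and Nr1d2 at 50.8, 76.5 and 50.1 CPM. The comparison of day 7 with day 2 uses the same day 2 libraries.

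KO crypts gave a second comparison of day 14 with day 2 that shares no library with the WT one. All 11 genes had a fold change of the same sign there, as had 93.0% of all 343 genes called in WT crypts. Of the 11, 9 passed the test in it, where 11.3% of all genes passed (5.54% higher and 5.75% lower). Arntl was at 22.9, 19.2 and 18.3 CPM in KO day 2 crypts and at 55.4, 50.4 and 65.6 CPM in KO day 14 crypts (log2 fold change 1.51, adjusted p = 3.7e-05). Dbp was at 17.6, 34.4 and 22.6 CPM against 2.79, 9.21 and 2.16 CPM (log2 fold change -2.40, adjusted p = 0.0016). Both genes thus separated the days in KO mice too. The exceptions were Cry2 (log2 fold change -0.16, adjusted p = 0.68) and Nfil3 (0.64, adjusted p = 0.068). Per1, which had not passed in WT crypts, rose in KO crypts (log2 fold change 1.04, adjusted p = 0.0048). The difference of the day effect between KO and WT passed the test for 0 of the 20 clock genes, with a smallest adjusted p of 0.18 in edgeR's quasi-likelihood test, and for 1.04% of all genes. For Cry2 the difference, KO minus WT, was 0.95 (adjusted p = 0.18).

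Enterocytes are the absorptive cells that leave the crypt for the villus, where they digest and take up nutrients through brush border enzymes and transporters. All 22 enterocyte markers tested had a lower estimate at WT day 14, with a median log2 fold change of -1.15, against 48.9% of all genes with a lower estimate. The decrease passed the test for 7 of them (31.8%, against 0.871% of all genes). Among transporters, Slc15a1, which takes up di- and tripeptides, was at 604, 310 and 886 CPM at day 2 and at 80.9, 214 and 229 CPM at day 14 (log2 fold change -1.78, SE 0.41, adjusted p = 0.043). Slc5a1, the sodium-glucose transporter SGLT1, was at 2105, 1357 and 2974 CPM against 414, 740 and 898 CPM (log2 fold change -1.65, SE 0.29, adjusted p = 0.010). Fabp2, the intestinal fatty acid-binding protein, was at -1.69 on the log2 scale (SE 0.39, adjusted p = 0.043). The day 14 libraries lay below the day 2 libraries in each case, with replicate 1 the lowest. The brush border peptidases Enpep and Dpp4 fell with log2 fold changes of -1.23 and -1.01, and the disaccharidase Mgam, with 6202, 5114 and 7747 CPM against 2764, 3442 and 3868 CPM, with one of -0.92 (SE 0.21, adjusted p = 0.039). Under the GC offset only 2 enterocyte markers passed, Slc5a1 and Enpep. Slc15a1, Fabp2, Dpp4 and Mgam did not (adjusted p = 0.056, 0.0676, 0.0676 and 0.0512). Sis, the sucrase-isomaltase, at 4370, 3555 and 5331 CPM against 1228, 1694 and 2934 CPM, did not pass (log2 fold change -1.18, adjusted p = 0.051), nor did Apoa4 (-1.22, adjusted p = 0.17) or Alpi (-0.83, adjusted p = 0.25).

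The level of these genes differed between mice of one day as well. Summed over the 22 markers it was 46560, 30030 and 64810 CPM in the WT day 2 libraries and 13100, 24260 and 27740 CPM in the WT day 14 libraries, so that the nearest libraries of the 2 days were closer to each other than the day 2 libraries were among themselves. The number of calls was 0 in the model of the 6 libraries alone and after dropping day 2 replicate 1, and 1 after dropping day 14 replicate 1 or day 2 replicate 3. It was 3 after dropping day 14 replicate 2 and 15 after dropping day 2 replicate 2. The median log2 fold change of the markers stayed between -1.35 and -0.796 under every setting tried. In KO crypts 20 of the 22 had a lower estimate at day 14 and 5 passed (Slc15a1, Anpep, Dpp4, Slc6a19 and Enpep), where 5.75% of all genes fell, with a median log2 fold change of -0.52. In bulk samples such as these, fewer cells of a type and less RNA of these genes per cell cannot be told apart.

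Genes that handle drugs, hormones and other foreign compounds fell in part. Tamoxifen itself is oxidised by cytochromes P450. Of 30 xenobiotic genes tested, 8 fell (26.7%, against 0.871% of all genes), none rose, and the median log2 fold change was -0.98. Cyp3a11, the main inducible member of the CYP3A enzymes of the mouse, was at 745, 348 and 1183 CPM at day 2 and at 64.1, 126 and 187 CPM at day 14, which is 6.03-fold lower (log2 fold change -2.59, SE 0.41, adjusted p = 0.0081). Cyp3a25 was at 344, 255 and 454 CPM against 64.6, 68.0 and 163 CPM (log2 fold change -1.83, SE 0.31, adjusted p = 0.010), and Cyp3a13 was at -1.52 on the log2 scale (SE 0.28, adjusted p = 0.012). These enzymes are close relatives, and reads that align to several places were not counted. Abcb1a, which encodes the efflux pump P-glycoprotein, was at 621, 386 and 796 CPM against 173, 179 and 171 CPM (log2 fold change -1.78, SE 0.27, adjusted p = 0.0034), and it was the member of the list that passed in every fit without 1 library and in the model of the 6 libraries. The 3 day 14 libraries were almost equal for this gene. Abcc2, an export pump for conjugates, Ces2a, a carboxylesterase, Sult1b1, a sulfotransferase, and Cyp2c68 fell with log2 fold changes of -1.18, -1.25, -1.17 and -0.98. Abcc2, Sult1b1 and Cyp2c68 did not pass under the GC offset (adjusted p = 0.0504, 0.0803 and 0.072). Cyp2b10 and Cyp2c29 had estimates of -1.79 and -2.75 that did not pass (adjusted p = 0.058 and 0.074).

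The receptors and the redox partner of these enzymes did not pass. Nr1i2, the pregnane X receptor, was at 98.0, 84.2 and 93.8 CPM at day 2 and at 69.4, 76.6 and 88.2 CPM at day 14 (log2 fold change -0.24, 95% confidence interval -0.51 to 0.03). Nr1i3, the androstane receptor CAR, had a log2 fold change of -0.39 (adjusted p = 0.18), Ahr one of -0.016 (adjusted p = 0.97), and Por, the reductase that feeds electrons to the P450 enzymes, one of -1.28 (adjusted p = 0.053). The number of xenobiotic calls was 2 after dropping day 2 replicate 1 or replicate 3, 3 after dropping day 14 replicate 1, 17 after dropping day 2 replicate 2, and 1 in the model of the 6 libraries. In KO crypts 9 of the 30 fell, against 5.75% of all genes, and none rose. Many of these genes are expressed in enterocytes, and the enterocyte markers moved with them, and their part in the result was not tested. At WT day 7, where 0.3% of all genes were lower than at day 2, the decrease passed for Sult1b1 (log2 fold change -1.21, adjusted p = 0.038), while Cyp3a11, at 291, 295 and 227 CPM, did not pass (log2 fold change -1.48, adjusted p = 0.067).

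**Figure D3:**
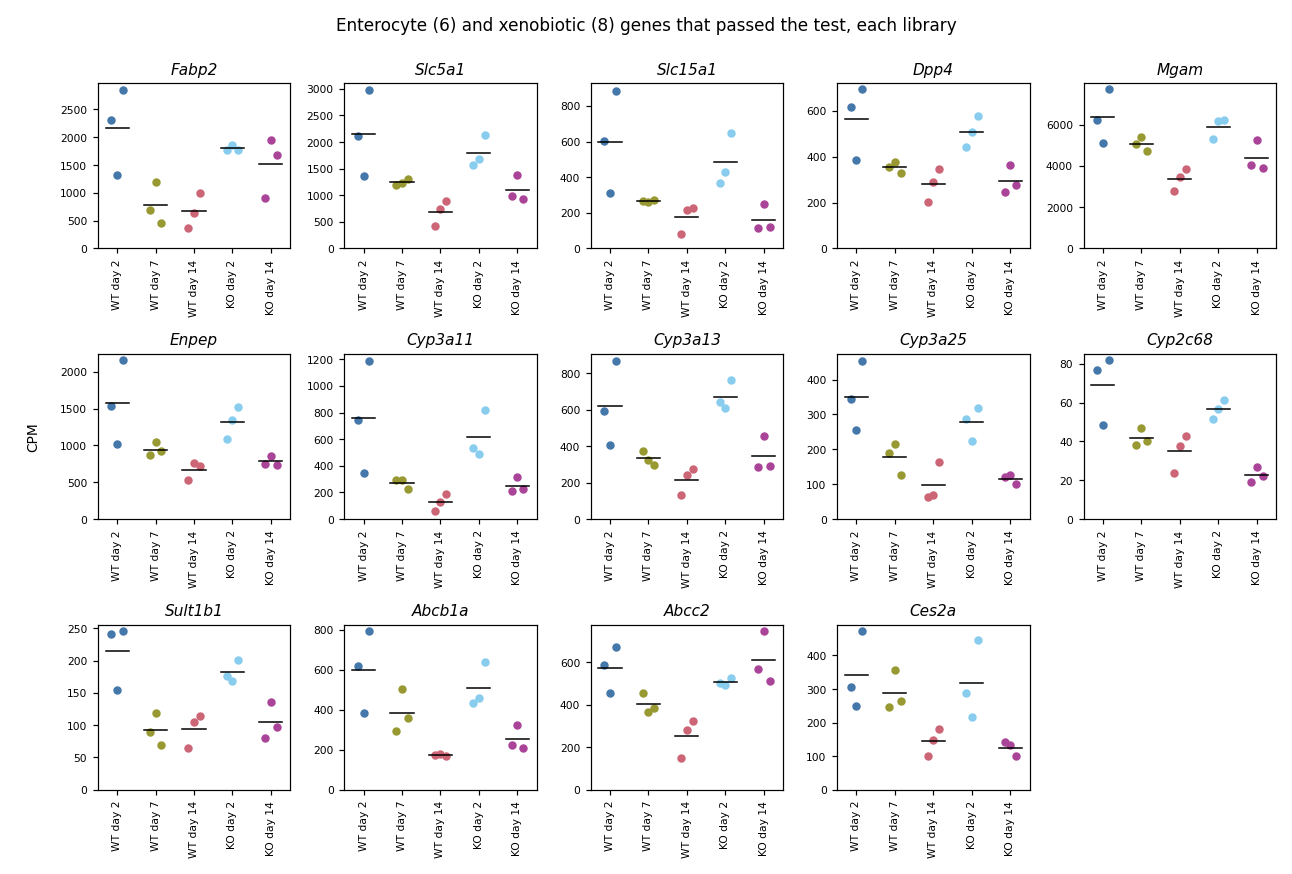
CPM (linear axis from 0) of 6 of the enterocyte markers and the 8 xenobiotic genes that passed the test, with 1 point per library and a line at the group mean of 3. WT day 14 libraries lie below WT day 2 libraries, which are themselves widely spread, and for Abcb1a the WT day 14 libraries are nearly equal at 171 to 179 CPM.

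Genes outside these lists fell as well. Sult6b2, a sulfotransferase, was at 130, 88.5 and 119 CPM at day 2 and at 6.57, 27.8 and 9.22 CPM at day 14 (log2 fold change -2.93, SE 0.48, adjusted p = 0.012). The N-acetyltransferase paralogues Nat8f5, Nat8f6 and Nat8f2, which lie next to each other on chromosome 6, had log2 fold changes of -2.47, -2.40 and -2.04. Nat8f5 and Nat8f6 overlap on the same strand, so that shared fragments were counted for both. In KO crypts these 2 genes did not pass (-0.38 and -0.60), and their differences, KO minus WT, were 2.09 and 1.81 (adjusted p = 0.045 and 0.040). Bbox1, which makes the last step of carnitine synthesis, was at 31.0, 11.03 and 26.1 CPM against 3.10, 6.79 and 6.44 CPM (log2 fold change -2.03, SE 0.38, adjusted p = 0.022). Mertk, a receptor kinase for the uptake of dying cells, fell in every fit, from 176, 125 and 159 CPM to 57.4, 71.0 and 73.8 CPM (log2 fold change -1.18, SE 0.17, adjusted p = 0.0026). Bnip3, a mitophagy receptor of the hypoxia list, was at 8.57, 4.18 and 7.35 CPM against 2.12, 2.09 and 2.13 CPM (log2 fold change -1.67, adjusted p = 0.010), and the other 19 genes of that list did not pass (0.871% of all genes fell).

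Interferon-stimulated genes encode the antiviral sensors and effectors that type I and type III interferons switch on. All 31 tested had a lower estimate at WT day 14, with a median log2 fold change of -0.89, and 4 passed (12.9%, against 0.871% of all genes that fell). Among them were Usp18, the feedback inhibitor of the receptor, with 11.6, 7.12 and 7.13 CPM at day 2 and 3.32, 2.96 and 4.22 CPM at day 14 (log2 fold change -1.30, SE 0.24, adjusted p = 0.016), the RNA sensor Ifih1 (-0.68, adjusted p = 0.023) and the nucleic acid sensor Zbp1 (-1.11, adjusted p = 0.047, and 0.0622 under the GC offset). The groups did not overlap for 16 of the 31, against 23.8% of all genes. Ifit1, Oas3 and Ddx60, with estimates of -1.78, -1.62 and -1.48, did not pass. The summed level of the list was 1682, 1000 and 1266 CPM at day 2 and 606.1, 805.5 and 926.1 CPM at day 14. No gene of the list passed once replicate 1 of either day was dropped or in the model of the 6 libraries alone, 2 passed after dropping day 14 replicate 2, and 12 after dropping day 2 replicate 2. The 4 genes were among the 6 of the list that were lower at WT day 7 against the same day 2 libraries, where 0.3% of all genes were. Log2 fold changes there were -1.38 for Usp18, -0.70 for Ifih1 and -1.55 for Zbp1, and the other 2 of the 6 were Ifit2 (-1.22) and Oasl2 (-1.81). In KO crypts 3 of the 31 fell (Oas3, Ifih1 and Ifi27l2b), where 5.75% of all genes fell.

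B2m, the light chain of MHC class I, fell from 550, 377 and 784 CPM to 224, 298 and 306 CPM (log2 fold change -1.05, SE 0.24, adjusted p = 0.037), the 1 call in a list of 22 class I and interferon-gamma-induced genes (0.871% of all genes fell), and did not pass under the GC offset (adjusted p = 0.0829). Outside the list, and named after their values were seen, the class I gene H2-T23 (log2 fold change -0.93, adjusted p = 0.045) and Ifi47, an interferon-induced GTPase gene (-1.02, adjusted p = 0.022), fell too. Of 21 markers of T and NK cells, 20 had a lower estimate (median log2 fold change -0.997) and 16 did not overlap between the days, against 23.8% of all genes, but none passed the test. Trbc2, a constant region gene of the T cell receptor outside this list, fell in WT (log2 fold change -1.35, adjusted p = 0.045) and in KO crypts (-1.22, adjusted p = 0.019). The sum over the 21 markers was 244.6, 284.7 and 338.8 CPM at day 2 and 159.0, 132.0 and 186.1 CPM at day 14. The part of these cells in the interferon and MHC results was not tested. Cd3g, a subunit of the T cell receptor complex, was at 9.27, 11.3 and 13.7 CPM against 4.46, 4.97 and 6.53 CPM (log2 fold change -1.10, adjusted p = 0.066). Markers of B and plasma cells were at 65.7, 80.4 and 65.0 CPM against 131, 13.8 and 59.2 CPM in sum, and those of myeloid cells at 32.8, 35.8 and 41.2 CPM against 72.1, 38.8 and 85.1 CPM, with no gene called in either list. The MHC class II genes, at 713.5, 707.1 and 2247 CPM against 868, 169.7 and 751.5 CPM, overlapped between the days.

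Aqp8 and Pgc, both low at day 2, had large increases. Aqp8, a water channel, was at 0.574, 0.445 and 0.334 CPM at day 2 and at 1.51, 9.87 and 11.3 CPM at day 14 (log2 fold change 4.08, SE 0.79, adjusted p = 0.023). Pgc, the gastric protease precursor pepsinogen C, was at 0.574, 0.801 and 0.594 CPM against 13.3, 0.948 and 18.6 CPM (log2 fold change 4.04, SE 0.79, adjusted p = 0.025). In both genes 1 of the 3 day 14 mice lay far below the other two, and both lost the call when some of the libraries were dropped (highest adjusted p 0.132 and 0.135). Fgf15, the hormone by which the ileum restrains bile acid synthesis in the liver, was at 1.35, 1.38 and 2.79 CPM against 9.44, 5.29 and 4.96 CPM (log2 fold change 1.81, SE 0.43, adjusted p = 0.043, and 0.0571 under the GC offset). In KO crypts Fgf15 did not pass, with 4.93, 2.17 and 7.46 CPM at day 2 and 1.27, 2.46 and 2.29 CPM at day 14 (log2 fold change -1.30, adjusted p = 0.063), and the difference, KO minus WT, was -3.10 (adjusted p = 0.016). Osr2, the other of 2 calls among 14 markers of the distal small intestine (0.735% of all genes were called higher), had a log2 fold change of 0.57 (adjusted p = 0.036), whereas Fabp6 (0.83, adjusted p = 0.40) and Slc10a2 (-0.064, adjusted p = 0.96) did not pass. No marker of the proximal small intestine passed (14 tested, median log2 fold change -0.59).

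Scd2, a desaturase that makes monounsaturated fatty acids, rose from 41.8, 63.4 and 94.0 CPM to 385, 320 and 171 CPM, a 4.40-fold increase (log2 fold change 2.14, SE 0.35, adjusted p = 0.010). It had risen by day 7, with 240, 156 and 217 CPM (log2 fold change 1.62 against day 2, adjusted p = 0.047), and it rose in KO crypts (log2 fold change 2.41, adjusted p = 0.0005). Mir5114, with a log2 fold change of 2.39 (adjusted p = 0.0028), lies inside Scd2 on the same strand of chromosome 19, so that fragments of the 2 cannot be told apart. Acaca, which catalyses the first step of fatty acid synthesis, was at 60.4, 59.6 and 56.2 CPM against 88.8, 93.4 and 63.6 CPM (log2 fold change 0.48, SE 0.12, adjusted p = 0.050), just inside the threshold, and did not pass under the GC offset (adjusted p = 0.0504). Of the 12 genes of fatty acid synthesis tested, 2 rose, against 0.735% of all genes, and 9 had a higher estimate, with 0.59 for Fasn (adjusted p = 0.057) and 0.62 for Fads1 (adjusted p = 0.051). On the side of oxidation, 22 of 23 genes had a lower estimate (median log2 fold change -0.64), and 1 of the 23 fell, against 0.871% of all genes. This was Creb3l3, a transcription factor of the lipid response to fasting, which went from 263, 169 and 336 CPM to 57.3, 112 and 149 CPM (log2 fold change -1.26, adjusted p = 0.047). No gene of cholesterol synthesis and uptake passed (25 tested, median log2 fold change 0.13).

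Smaller increases were found in Zfp703 and Foxp4, both transcriptional regulators. Zfp703 was at 20.95, 20.6 and 17.8 CPM against 39.7, 35.5 and 38.6 CPM (log2 fold change 0.94, SE 0.13, adjusted p = 0.0021), and Foxp4 at 35.2, 33.1 and 33.9 CPM against 58.5, 57.3 and 59.4 CPM (log2 fold change 0.78, SE 0.12, adjusted p = 0.0055). The replicates of these genes were tighter than those of most genes above. Gm45371 overlaps Zfp703 on the opposite strand, and Gm42686 overlaps Abcb1a in the same way, and the counting did not use strand, so that neither of them can be told apart from its partner. Other genes with large increases were Dlk2, a relative of the Notch ligands (2.27), the death receptor Tnfrsf25 (2.07), the collagen genes Col11a2 (1.70) and Col7a1 (1.59), the tight junction gene Cldn8 (1.53) and the fatty acid transporter gene Slc27a3 (1.43), all on the log2 scale and all at or below 7.63 CPM in each of the 6 WT libraries of days 2 and 14. Of these, Dlk2, Tnfrsf25, Col11a2, Col7a1 and Slc27a3 did not pass under the GC offset. In the list of glucocorticoid response genes, Ddit4, a stress-induced inhibitor of mTORC1, rose from 12.8, 12.1 and 8.25 CPM to 14.4, 30.5 and 29.6 CPM (log2 fold change 1.18, adjusted p = 0.022) and Fkbp5, a co-chaperone of the receptor, fell from 97.2, 68.9 and 134 CPM to 50.2, 35.6 and 25.4 CPM (log2 fold change -1.43, adjusted p = 0.037). The other 8 genes of the list did not pass (1.61% of all genes were called), neither call held in every fit without 1 library, and Ddit4 did not pass under the GC offset (adjusted p = 0.0691).

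Stem cell, cell cycle and secretory cell genes gave few calls, as did all genes tested, of which 1.61% were called. None of 19 stem cell markers, 18 mitosis genes, 25 DNA replication genes or 67 histone genes passed, with median log2 fold changes of 0.21, 0.017, 0.0002 and -0.031. Lgr5 was at 36.4, 32.1 and 29.4 CPM against 46.1, 31.5 and 43.7 CPM (log2 fold change 0.31, adjusted p = 0.58), and Mki67, which marks dividing cells, at 553, 648 and 528 CPM against 652, 580 and 512 CPM (0.01, adjusted p = 0.98). Both overlapped between the days. Olfm4 had a log2 fold change of -0.26 (adjusted p = 0.65), and Axin2, a Wnt target, one of 0.67 with 78.8, 79.6 and 77.7 CPM against 136, 115 and 124 CPM (adjusted p = 0.064). Of 21 Paneth cell markers, 19 had a higher estimate (median log2 fold change 0.37) and none passed. Without day 14 replicate 1 their median was 0.0124, and their median deviations from the day 2 mean (log2 CPM) were 0.96, 0.21 and -0.059 in the day 14 libraries and -0.47, -0.19 and 0.66 in the day 2 libraries. Lyz1, with 3109, 3725 and 6598 CPM against 9747, 5112 and 4407 CPM, varied as much within a day as between days (0.52, adjusted p = 0.46). Among 17 goblet cell markers 1 rose, against 0.735% of all genes. This was Creb3l1, a transcription factor of the secretory pathway, which went from 14.8, 13.6 and 16.5 CPM to 30.6, 22.8 and 22.01 CPM (log2 fold change 0.74, adjusted p = 0.040, and 0.0903 under the GC offset), and Muc2, the main intestinal mucin, had a log2 fold change of 0.32 (adjusted p = 0.36). None of 26 enteroendocrine markers (median -0.30, Chga -0.33 with adjusted p = 0.31) and none of 16 tuft cell markers (median 0.26) passed. Among 10 epithelial identity genes, against 0.735% of all genes, 1 rose, the transcription factor gene Elf3 (log2 fold change 0.54, adjusted p = 0.047, and 0.103 under the GC offset), while the other 9 had estimates below 0 that did not pass (median of the list -0.15).

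**Figure D4:**
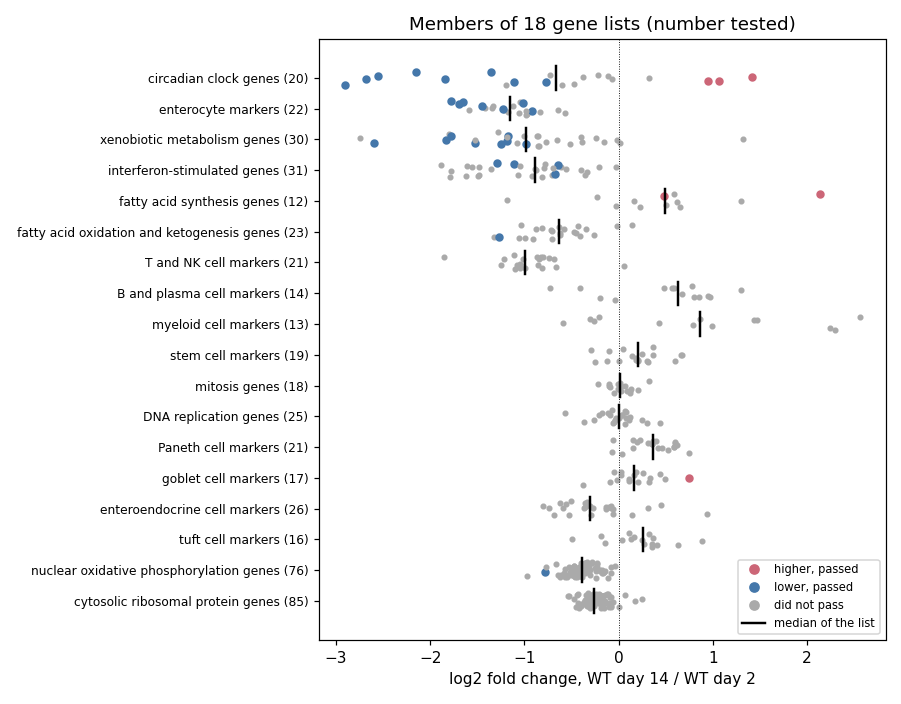
Log2 fold change of WT day 14 over day 2 for the members of 18 gene lists, with 1 point per gene, red or blue where the gene passed the test, and a black bar at the median of the list. The clock list spreads to both sides, all 22 enterocyte and all 31 interferon-stimulated genes lie left of 0, the mitosis and DNA replication lists are centred near 0 (medians 0.017 and 0.0002), and the stem cell list has a median of 0.21.

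In the lists that bear on the exposure itself, Esr1, the estrogen receptor that tamoxifen binds, was at 0.164, 0.311 and 0.297 CPM at day 2 and at 0.680, 0.474 and 0.417 CPM at day 14 (log2 fold change 0.96, adjusted p = 0.17). None of 9 estrogen response genes passed (median 0.52, Greb1 0.47 with adjusted p = 0.17), although their median deviation from the day 2 mean (log2 CPM) was higher in the day 14 libraries (0.71, 0.46 and 0.57) than in the day 2 libraries (-0.26, 0.12 and 0.15). Nor did any pass of 21 p53 target genes (median -0.044), 23 NRF2 target genes (median -0.39, Gsta1 -1.50 with adjusted p = 0.052), 19 genes of the integrated and ER stress responses (median -0.25), 18 immediate early genes (median 0.065) or 15 regenerative epithelium markers (median -0.21). Against 0.871% of all genes that fell, a few decreases were called for Dnaja1 among 11 heat shock genes (-0.55, adjusted p = 0.041), Atp5md among 76 nuclear genes of oxidative phosphorylation (-0.78, adjusted p = 0.045, with 1.32% of the list near the share of all genes) and Ireb2 and Heph among 12 genes of iron handling (-0.67 and -0.88), and none of these 4 passed under the GC offset. All 76 oxidative phosphorylation genes had a lower estimate (median -0.39), as had 81 of 85 cytosolic ribosomal protein genes (median -0.26), none of which passed. Day 14 replicate 2 stood apart from the other two in both lists. The ribosomal protein genes summed to 23200, 23870 and 24480 CPM at day 2 and to 18060, 25160 and 17460 CPM at day 14, and the oxidative phosphorylation genes to 11790, 10830 and 14350 CPM against 7669, 12100 and 8784 CPM, so that the sums of the 2 days overlapped. Nothing passed among the genes of ribosome biogenesis (20 tested, median -0.0043), mitochondrially encoded proteins (13, 0.095), retinoid metabolism (12, -0.58), BMP and Notch targets (14, 0.073), antimicrobial defence (16, 0.31) and chemokines (9, -0.32), or among markers of stromal and vascular cells (16, 0.031), enteric neurons and glia (4, 0.080), pancreatic acinar cells (8, 0.52) and erythroid cells (5, -0.14). Over all 45 lists, 45 of 907 genes passed, against 1.61% of all genes, and 15 lists held at least 1 of them.

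A pair of neighbouring loci made up more of the day 14 libraries. Gm26917 and CT010467.1 on chromosome 17, of which the second is annotated as rRNA, together held 2.48%, 2.52% and 2.26% of the counts at WT day 2 and 8.58%, 6.45% and 7.999% at WT day 14 (exact permutation test, two-sided, p = 0.1, the smallest that 3 against 3 allows). Their share at WT day 7 was 5.71%, 4.94% and 4.46%. Both loci were also called higher at day 14 by the main test, so that the permutation test is no separate support. Gm23935, a short feature of 57 bases annotated as a miRNA, rose from 4046, 4541 and 3928 CPM to 33695, 30141 and 49058 CPM (log2 fold change 3.17, SE 0.40, adjusted p = 0.0012). Of the 414 miRNA-type features tested, 7 rose and 1 (Gm49347) fell, against 0.735% higher and 0.871% lower among all genes. Ribosomal RNA had been depleted before sequencing. The 20 most abundant genes held 20.3% to 20.7% of the counts at day 2 and 24.4% to 30.3% at day 14, while the mitochondrial share was 10.3% ± 0.229 and 10.5% ± 1.82 (SD, n = 3).

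The calls also followed the base composition of the transcripts. Among protein-coding genes, the median GC content was 59.1% for the 123 that were higher at day 14, 44.7% for the 164 that were lower and 49.96% for all 14370. Ordered by GC content and divided into 10 bins of equal size, the genes of the lowest bin had a median log2 fold change of -0.22, with 1 gene higher and 41 lower, and those of the highest bin one of 0.24, with 71 higher and 1 lower. The median rose from each bin to the next, and it did so in KO crypts as well, from -0.21 to 0.15. In single libraries the contrast between the extreme bins was wider in all 3 day 14 libraries than in the day 2 libraries 1 and 2, which sloped the other way, and day 2 replicate 3 sloped in the same direction as day 14. With the GC offset, 144 genes were called, 50 of them higher (34.7%) and 94 lower, and 120 of the 343 genes above were among them. The clock list then held 10 calls, the xenobiotic list 6, the enterocyte list 2 and the interferon list 2. Of the 54 called genes that the naming rule picks, 35 passed and 19 did not, with adjusted p values of the latter between 0.0504 and 0.103.

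**Figure D5:**
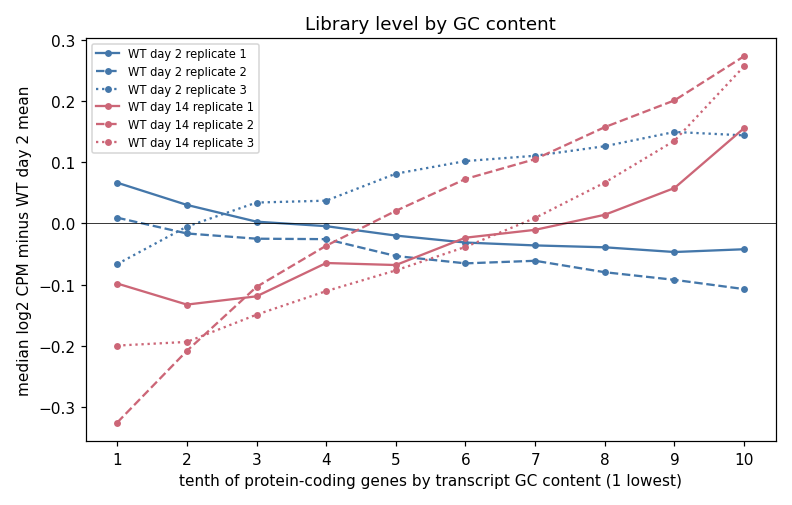
Median log2 CPM of protein-coding genes minus the WT day 2 mean (y axis), for 10 equal bins of genes ordered by transcript GC content (x axis), with 1 line per library. The 3 WT day 14 libraries rise from between -0.33 and -0.10 in the lowest bin to between 0.16 and 0.27 in the highest, and the 3 WT day 2 libraries fan out around 0 in both directions.

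Across all genes, the KO comparison of day 14 with day 2 called 2411 genes (11.3% of those tested). Of the 343 genes called in WT crypts, 319 (93.0%) had a KO fold change of the same sign. The share of the same sign over all genes tested was not computed. In KO crypts 139 of the 343 passed with the same sign, which is 40.5% of the WT calls and 5.77% of the KO calls. Only Tiam1 and Akr1c19, named after their values were seen, passed with the opposite sign. The median log2 fold change of the 343 genes in KO crypts was 0.52 for those higher in WT and -0.49 for those lower in WT. In WT crypts these medians were 0.82 and -0.998. The difference of the day effect between KO and WT passed for 223 genes, 9 of them among the 343.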

How the data were processed

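Small intestinal crypts were isolated with EDTA from 18 mice, and total RNA libraries were prepared after depletion of ribosomal RNA and sequenced in pairs. The authors aligned the reads with STAR 2.7.3 and deposited raw counts per gene made with featureCounts 1.6.4. According to the file header, counting used the mm10 build and GENCODE M23 (the methods name M26), read pairs were counted as fragments, fragments that overlap several genes were counted for each, strand was not used and multiply aligned reads were left out. This inflates overlapping genes and can lower close paralogues.

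The deposited counts were fitted with edgeR 4.0.16 (R 4.3.3) over all 18 libraries with 6 group means, which share 1 estimate of the spread. TMM scaling, filterByExpr, robust quasi-likelihood tests and the Benjamini-Hochberg adjustment at 0.05 were used, and p-values are two-sided. The study's methods used DESeq2, which was run here (1.42.0) as an alternative. The 20 genes that the authors listed as sex-associated were left out, and the sex of each mouse is not given in the labels. Samples were grouped by their titles. Replicate numbers did not pair the WT samples, since the correlations of same-numbered deviations between days 2 and 14 were -0.0326, -0.234 and -0.00325. GC content and gene types came from GENCODE M21 (99.8% of the genes tested matched). In simulated data for this contrast (19628 genes tested), 84% of 2-fold and 99% of 4-fold changes were recovered, with 10 false calls among 193. The 200 changed genes had a mean of at least 50 counts, and every gene was drawn at the spread typical of its level. No GC slope or deviating library was simulated. These rates therefore do not carry over to genes with fewer counts or to libraries that stand apart.

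Named genes were the 12 with the largest change in each direction. These were taken among called genes with a symbol, no overlap between the days and a mean of at least 1 CPM. Added were up to 4 called members of each list, or the 2 with the smallest p where none was called. Up to 10 genes called in every fit without 1 library and in the model of the 6 libraries alone were added too, as were fixed anchor genes. Other genes named were chosen after their values were seen. The members and lists were chosen with earlier results of these data known. Alternatives covered the test, the scaling, the filter on low counts, the libraries in the fit, a replicate block and, added after seeing the data, a GC offset. The results of some genes that the rule names are not reported here.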

Additional observations from a re-analysis of the deposited data

Results flagged for a closer look

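The change from day 2 to day 14 differed between KO and WT crypts for 7 of the genes that the naming rule picks. The test was the interaction term in edgeR's quasi-likelihood model, with p-values adjusted by Benjamini-Hochberg. Genes named outside that rule are not counted here. Differences are given on the log2 scale as KO minus WT. They were 2.09 for Nat8f5 (adjusted p = 0.0452) and 1.81 for Nat8f6 (adjusted p = 0.0396), which overlap each other and share fragments. For Gip and Chga, the transcripts of enteroendocrine cells for the incretin GIP and chromogranin A, they were 1.41 (adjusted p = 0.0107) and 1.76 (adjusted p = 0.00157), and for Tph1, the enzyme of serotonin synthesis, 2.34 (adjusted p = 0.000209). For the cytokine gene Il18 the difference was 0.94 (adjusted p = 0.0371). Fgf15 had the opposite sign, with -3.10 (adjusted p = 0.0164). Gip, Chga, Tph1 and Il18 did not pass the test in WT crypts. No test for an outlying sample was made in groups of 3. The effect of leaving out 1 library is given with the processing for the number of genes called, not for these 7 genes.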

How the results depend on the processing

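The counts of calls depended on the processing, and the cause was not tested except where a setting uses fewer samples or genes. Against 343 genes for WT day 14 over day 2, the DESeq2 Wald test called 1397 (330 of the 343 among them), testing every gene regardless of its counts 1011, testing only genes with a mean of 50 or more counts 770, the model of the 6 libraries alone 28 and the GC content offset 144. With the replicate number as a replicate block the count was 173 (165 shared), although the numbers did not pair the samples of these groups. Between WT and KO, same-numbered samples correlated by 0.227, 0.18 and 0.159 at day 14 but by 0.0478, 0.158 and 0.381 at day 2, and the block gave 211 genes (195 shared) for the KO minus WT difference. The counts without 1 library ranged from 22 to 712. For the genes in lists, 45 in the reported fit, these settings gave 137 with DESeq2, 107 without the filter, 83 at a mean count of at least 50, 8 with the 6 libraries and 25 with the GC offset, and between 7 and 91 without 1 library. The difference between KO and WT, 223 genes, became 487 with DESeq2 and 433 without the filter, and 111 to 222 without 1 library. The KO comparison, 2411 genes, ranged from 1136 to 2892 without 1 library. Estimates of uncalled genes changed sign when 1 library was left out for Elavl4 (-1.10 to 0.25), Hbb-bs (-0.95 to 0.21), Prmt1 (-0.24 to 0.084) and Mki67 (-0.063 to 0.11). The p-values rest on a spread estimated over all 6 groups, not on the mice of the groups compared alone. With 3 mice per group, changes can be missed, also some with estimates beyond 2-fold.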
